A study of Mus musculus with 15 samples.

Results

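The 8 genes described here carry sugar into the liver cell and start its breakdown. They are the glucose transporters Slc2a1 and Slc2a2, the hexokinases Hk1 and Hk2, the regulator of hepatic glucose phosphorylation Gckr, the fructokinase Khk, the aldolase Aldoc and the liver pyruvate kinase Pklr. They were chosen by name: the estimated counts of all their transcripts were summed per gene symbol, which gave 8 of 35540 genes in the table, and all 8 were among the 13916 genes that passed the filter on low counts. The libraries are bulk RNA from mouse liver after 8 weeks on a high-fat diet, which all 3 groups received. The groups were wild type (WT), mice with the C247S change in TXNIP (C247S KI) and mice labelled as a knockout of Txnip (KO), with 5 libraries each. C247S changes the cysteine through which TXNIP, the thioredoxin-interacting protein, binds thioredoxin. Strain, sex, age, the tissue reach of the knockout and feeding state at collection are not given in the sources used. Each library title carries a number of its own, but the labels do not say what it stands for or that each library is a separate animal, and the tests therefore reflect how these libraries vary. The numbers of the KO libraries form a series apart from those of WT and C247S KI, so whatever they stand for cannot be told apart from the KO genotype.

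Glucose enters hepatocytes mainly through GLUT2, the product of Slc2a2, which works in both directions and has a low affinity. GLUT1, from Slc2a1, has a higher affinity and is typical of endothelium and proliferating cells. Inside the cell glucose is phosphorylated, a step that the protein of Gckr restrains in hepatocytes when glucose is scarce and that the high-affinity hexokinases Hk1 and Hk2 carry out in most other cells. Fructose takes another route, through ketohexokinase (Khk), and so bypasses phosphofructokinase. Pklr encodes the liver pyruvate kinase of the last step of glycolysis, and its promoter is the textbook target of the glucose-sensing factor ChREBP (Mlxipl). TXNIP itself is known to restrain glucose uptake by promoting the removal of GLUT1 from the cell surface, a step that a transcript count does not measure.

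The libraries held 18047577 to 23379940 estimated counts. Counts of a member in a library were lowest for Hk2 (29 to 185), followed by Hk1 (91 to 215), Aldoc (93 to 301) and Slc2a1 (280 to 591), and were at least 2630 for each of the others. Txnip, the targeted gene, was at 70.9 to 123.5 CPM (counts-per-million) in the KO libraries, at 180 to 319.9 in WT and at 99.9 to 280 in C247S KI. Its log2 change from WT to KO was -1.17 (SE 0.24, edgeR adjusted p = 0.00887). The reads left in KO do not show which part of the gene was removed. Summed hepatocyte markers (Alb and 6 others) reached at least 55590 CPM in every library, as befits liver. The sum was 55590 to 76000 CPM in KO, below the 85520 to 102900 of WT, and 71160 to 119600 in C247S KI. Alb itself was lower in KO (-0.80 against each other group, edgeR adjusted p = 0.0294 against WT and 0.0218 against C247S KI). Of the 7 log2 values, 4 were above 0 in KO against WT and 2 in KO against C247S KI. All levels below are CPM scaled by TMM factors unless a level per length is named. All changes are log2 fold changes from the edgeR quasi-likelihood fit of all 15 libraries, with Benjamini-Hochberg adjustment over the 13916 genes and a threshold of 0.05. The 3 comparisons share libraries, since each group enters 2 of them, and their values are set side by side without any count of overlap.

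Read per transcript length, the genes fell into an abundant set and a scarce set. On this scale (TPM, counts over transcript length brought to one total per library), Khk stood at 694.5 ± 146 (SD, n = 15 libraries), Pklr at 164.6 ± 51.9, Slc2a2 at 161 ± 37.5 and Gckr at 155 ± 36.3. Slc2a1 followed at 10.3 ± 2.27 TPM, Aldoc at 7.69 ± 2.91, Hk1 at 3.02 ± 0.866 and Hk2 at 1.28 ± 0.872. Khk lay above Pklr in all 15 libraries and Gckr lay above Slc2a1 in all 15, without overlap of their ranges. Pklr, Slc2a2 and Gckr overlapped in TPM, as did Slc2a1 with Aldoc, Aldoc with Hk1 and Hk1 with Hk2. Among the 8 genes, the hepatocyte forms were thus the abundant ones and the forms typical of other cells the scarce ones.

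**Figure D1:**
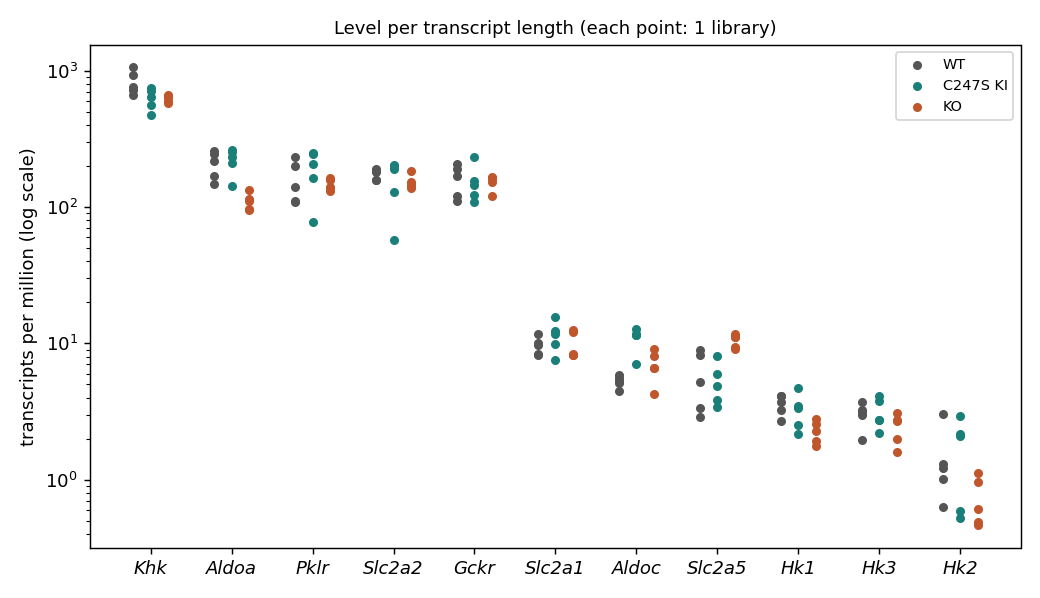
Level per transcript length (TPM, log axis) of the 8 genes and of Aldoa, Slc2a5 and Hk3, related genes of the same steps, 1 point per library, with the groups in different colours. Khk lies above Pklr, Slc2a2 and Gckr, which overlap each other and lie above Slc2a1, Aldoc, Hk1 and Hk2.

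The largest differences among the 8 genes were in scarce forms. Hk1 was lower in KO than in WT, Hk2 was lower in KO than in C247S KI, and Aldoc was 2.13-fold higher in C247S KI than in WT at an adjusted p of 0.051 in edgeR, just above the threshold. The abundant hepatocyte genes Slc2a2, Gckr, Khk and Pklr and the transporter Slc2a1 passed the test in none of the 3 comparisons. In C247S KI against WT 0 of 8 members passed, where 12 of the 13916 tested genes did (0.0862%). At an unadjusted p under 0.05 there were 2 members, Khk and Aldoc, among 1371 genes, and DESeq2 called 1 member, Aldoc, while limma-voom called 0. In KO against WT 1 of 8 passed, Hk1, against 6.75% of all genes (4.19% lower). In KO against C247S KI 1 of 8 passed, Hk2, against 10.3% of all genes (5.85% lower). A share of 1 in 8 is near these background shares and is no result about the set as a whole. The median log2 fold change of the 8 was 0.11 in C247S KI against WT, -0.04 in KO against WT and -0.13 in KO against C247S KI, beside 0.0024, -0.0099 and -0.029 over all genes tested.

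**Figure D2:**
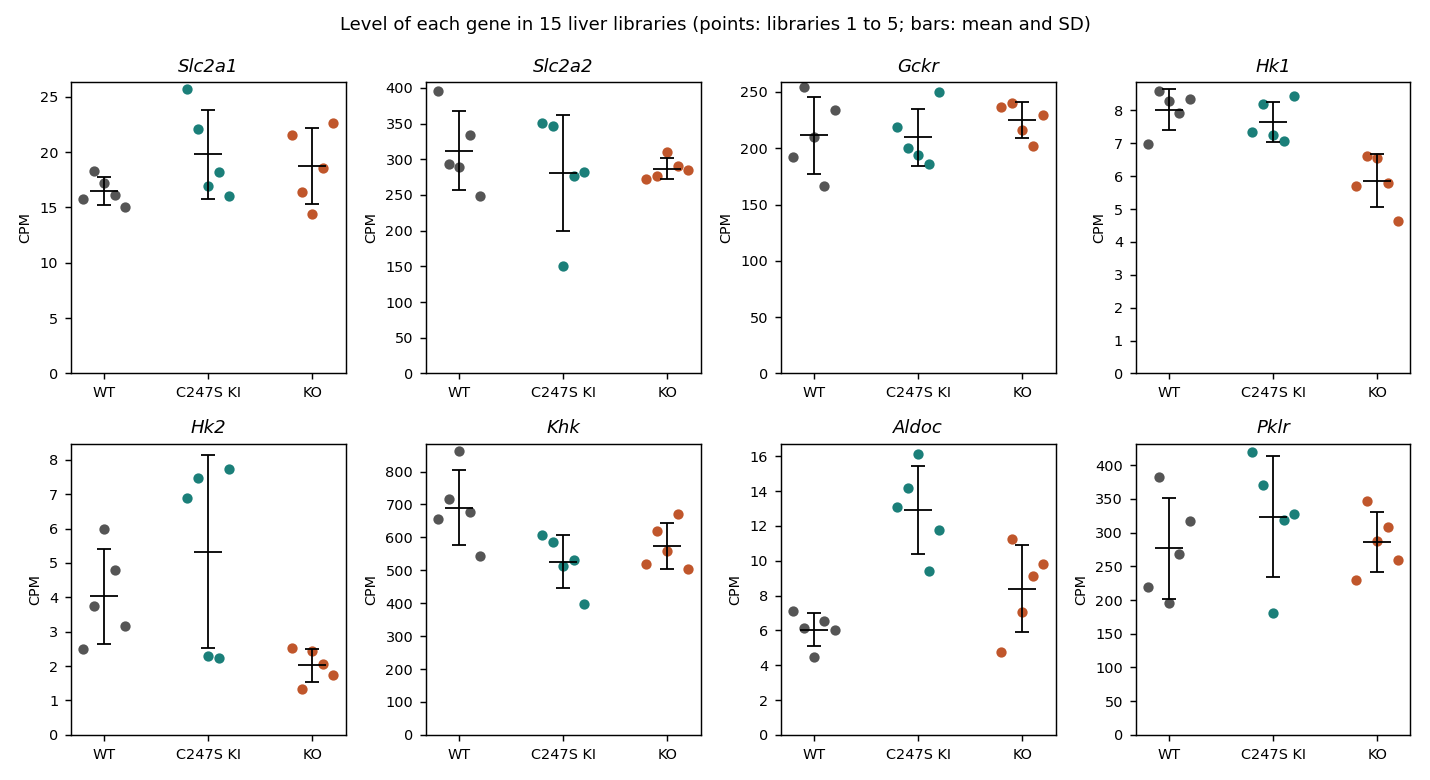
CPM of each of the 8 genes in each of the 15 libraries, with group means and SD, 1 panel per gene with its own linear axis. The 5 KO libraries lie below all WT libraries for Hk1, the 5 C247S KI libraries lie above all WT libraries for Aldoc, and the groups overlap for the other genes.

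Slc2a1 (ENSMUSG00000028645, chr4:119108711-119137983 of GRCm38, plus strand) encodes GLUT1. Its level in WT libraries 1 to 5 was 15.7, 18.3, 17.2, 16.2 and 15.1 CPM. In C247S KI it was 25.7, 22.05, 16.9, 18.2 and 16 CPM, and in KO 21.6, 16.4, 14.45, 18.6 and 22.7 CPM. Only C247S KI 1 and 2 and KO 1, 4 and 5 exceeded the highest WT library, so both other groups overlapped WT. The log2 difference was 0.26 in C247S KI against WT (95% interval -0.04 to 0.57, edgeR adjusted p = 0.567) and 0.18 in KO against WT (-0.12 to 0.49, adjusted p = 0.486). Between KO and C247S KI it was -0.08 (-0.38 to 0.22, adjusted p = 0.754). A rise of Slc2a1 above 1.48-fold in C247S KI or 1.40-fold in KO lies outside these intervals. The spread was wider in both mutant groups, with a SD of 4.05 and 3.45 CPM against 1.28 in WT, a difference in spread that was not tested.

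Slc2a2 (ENSMUSG00000027690, chr3:28697903-28731359, plus strand) encodes GLUT2. Mean levels in WT, C247S KI and KO were 312 ± 55.6, 281 ± 81 and 287 ± 15 CPM (SD, n = 5 each). The WT libraries ran from 248 to 395 CPM and the KO libraries from 272 to 311, inside the WT range. In C247S KI, libraries 1, 2, 4 and 5 lay between 276 and 350 CPM and library 3 at 150 CPM, the lowest of all 15. None of the 3 log2 differences passed (-0.15 in C247S KI against WT, -0.12 in KO against WT, 0.03 in KO against C247S KI, with edgeR adjusted p of 0.804, 0.741 and 0.935). The 95% intervals ran from -0.54 to 0.24, from -0.51 to 0.27 and from -0.36 to 0.42, or levels of 0.689 to 1.18 times, 0.703 to 1.20 times and 0.781 to 1.34 times those of the second group. C247S KI 3 was also the lowest library for Pklr (180 CPM) and the lowest of its group for Txnip (99.9 CPM).

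The ratio of Slc2a1 to Slc2a2 within a library put both transporters on one scale. Its mean log2 values in WT, C247S KI and KO were -4.22 ± 0.28, -3.78 ± 0.38 and -3.95 ± 0.32 (SD, n = 5 each). The difference of 0.44 between C247S KI and WT had an exact two-sided permutation p of 0.0635, and 0.238 after adjustment over 12 such ratio tests. Of the other members of the family, Slc2a5 (GLUT5, a fructose transporter scarce in liver) was the one that passed. Its level ran from 10.4 to 16.8 CPM in KO, from 3.58 to 8.49 in WT and from 3.26 to 8.18 in C247S KI, so KO overlapped neither group. Slc2a5 rose by 1.15 in KO against WT (SE 0.28, edgeR adjusted p = 0.0192) and by 1.19 against C247S KI (SE 0.28, adjusted p = 0.012). Its call against WT was lost without WT 4 (1.03, adjusted p = 0.0518) and without KO 2 (1.05, adjusted p = 0.0535). Its level per length was 7.16 ± 3.11 TPM over 15 libraries, so the transporter that passed was, like Slc2a1, far below Slc2a2.

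Hk1 (ENSMUSG00000037012, chr10:62268855-62379908, minus strand) is the hexokinase found in most tissues, bound to mitochondria. In WT libraries 1 to 5 it was at 6.99, 8.58, 8.30, 7.91 and 8.34 CPM. In C247S KI it was at 7.36, 8.185, 7.24, 7.08 and 8.44 CPM, and in KO at 5.695, 6.61, 6.56, 5.80 and 4.625 CPM. All 5 KO libraries lay below all 5 WT and all 5 C247S KI libraries, while C247S KI overlapped WT. Such a separation downwards was found in 5.09% of all genes for KO against WT and in 4.94% for KO against C247S KI.

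Relative to WT, Hk1 fell by 0.45 in KO on the log2 scale (SE 0.12, 95% interval -0.71 to -0.20, edgeR adjusted p = 0.034), a level of 0.731 times WT. The exact two-sided permutation p was 0.00794, the lowest that groups of 5 can give. Relative to C247S KI the log2 difference was -0.39 (SE 0.12, -0.64 to -0.13), with an edgeR adjusted p of 0.0521, just outside the threshold. Between C247S KI and WT it was -0.07 (-0.32 to 0.19, adjusted p = 0.869), so a fall of the size seen in KO lay outside that interval. The call against WT was lost without WT 2, 3, 4 or 5 or without KO 1, 4 or 5 (edgeR adjusted p = 0.061 to 0.0912, log2 values -0.45 to -0.37).

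Hk2 (ENSMUSG00000000628, chr6:82725025-82774454, minus strand) is the insulin-responsive hexokinase of muscle and fat, scarce in normal liver. The WT libraries held 2.48, 3.75, 5.98, 4.79 and 3.15 CPM, and the KO libraries 2.52, 1.34, 2.43, 2.07 and 1.73 CPM. The C247S KI libraries split widely, at 6.88, 7.46 and 7.73 CPM in libraries 1, 2 and 5 and at 2.28 and 2.25 CPM in libraries 3 and 4. KO 2, 4 and 5 were below every C247S KI library, whereas KO 1 and 3 lay above C247S KI 3 and 4, and 4 of 5 KO libraries were below all WT libraries.

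Hk2 fell by 1.41 in KO against C247S KI (SE 0.35, 95% interval -2.15 to -0.66, edgeR adjusted p = 0.0191), a level of 0.377 times C247S KI. The exact permutation p on log2 CPM was 0.0556 for this pair of groups. Against WT the log2 difference was -0.997 (SE 0.36, -1.75 to -0.25), a level of 0.501 times WT that missed the threshold (edgeR adjusted p = 0.0982), with an exact permutation p of 0.0159. In C247S KI against WT it was 0.41 (-0.31 to 1.12, adjusted p = 0.702). The call against C247S KI was lost without C247S KI 1 (-1.28, edgeR adjusted p = 0.0523), C247S KI 5 (-1.24, 0.0589) or KO 2 (-1.27, 0.0586). The coefficient of variation in WT, C247S KI and KO was 34.2%, 52.8% and 24.4%, the widest of the 8 genes in WT and in C247S KI.

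Hk1 and Hk2 together made up the high-affinity hexokinase transcripts besides Hk3, which did not pass in any comparison. Their log2 ratio in WT, C247S KI and KO was 1.04 ± 0.43, 0.72 ± 0.82 and 1.52 ± 0.41 (SD, n = 5 each). The differences of this ratio did not pass in the exact permutation test (p = 0.119 to 0.444, adjusted 0.238 to 0.593), so an unequal fall of the pair in KO was not detectable with these libraries. In bulk liver, fewer cells of a type and less RNA per cell cannot be told apart, and Hk1 and Hk2 are typical of cells other than hepatocytes.

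Several markers of such cells moved with the KO group. Over all genes tested, 4.19% were called lower in KO against WT and 5.85% against C247S KI. Of 9 endothelial markers, 2 were lower in KO against WT, Pecam1 (-0.80, edgeR adjusted p = 0.00347) and Lyve1 (-1.41, adjusted p = 0.00348). In that comparison 4 of the 9 log2 values were above 0, with a median of -0.17. The summed endothelial list ran from 160 to 254 CPM in KO, 140 to 323 in WT and 156 to 219 in C247S KI. Of 10 stellate cell and fibroblast markers 1 was lower (Col3a1), and the sum was 185 to 558.5 CPM in KO, 619 to 693 in WT and 445 to 649 in C247S KI. Of 7 tested lymphocyte markers 2 were lower, Ms4a1 and Ptprc, with sums of 10.9 to 17.7 CPM in KO and 15.1 to 25.05 in WT. Of 9 macrophage markers 0 passed in edgeR (2 at an unadjusted p under 0.05, and 0 in DESeq2 and limma-voom), with 162 to 257 CPM in KO against 236 to 357 in WT for the list. Of the adipose tissue markers, 3 of 6 passed the count filter and 2 of these, Fabp4 (-1.40, adjusted p = 0.000333) and Cfd (-2.54, adjusted p = 0.0155), were lower in KO against WT. The adipose sum of 14.4 to 20.8 CPM in KO overlapped neither WT (35.6 to 62.7) nor C247S KI (36.2 to 75.9). Against C247S KI, where Hk2 passed, 2 of 8 cholangiocyte markers were lower in KO, Spp1 (-1.48, edgeR adjusted p = 0.00303) and Sox9 (-1.05, adjusted p = 0.0122), and 0 of 8 values were above 0. The cholangiocyte sum of 36.1 to 51.3 CPM in KO lay below that of 57.7 to 137.5 in C247S KI without overlap, and in C247S KI against WT, where 0 of the 8 passed in edgeR, DESeq2 or limma-voom and 4 had an unadjusted p under 0.05, all 8 values were above 0. In the same comparison of KO with C247S KI, Lyve1, Fabp4 and Cfd were lower, as was 1 of 7 erythroid markers (Slc4a1). Most values of the endothelial and erythroid lists went the other way there, with 5 of 9 and 5 of 7 above 0. Of the 10 stellate cell and fibroblast markers 0 passed there in edgeR, 2 had an unadjusted p under 0.05, and DESeq2 called 1 and limma-voom 0. No listed marker was at 0 in all 15 libraries. The part of these cell types in the fall of Hk1 and Hk2 was not tested.

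A second measure moved with the same group. An index of clock genes, the mean log2 CPM of 5 genes high in the evening less that of 3 genes high in the morning, was 2.65 to 3.40 in KO, 1.17 to 2.48 in WT and 0.37 to 1.83 in C247S KI. KO overlapped neither group, so the phase of the clock at collection and the KO genotype cannot be told apart. With the index as a covariate, the log2 difference of Hk1 in KO against WT was -0.52 (edgeR adjusted p = 0.204) and that of Hk2 in KO against C247S KI was -1.34 (adjusted p = 0.38). Both sizes were close to those without the index, and both calls were lost.

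The Hk2 promoter is shown because Hk2 had the largest fold change of the 8 genes. Hk2 is also a known target of the hypoxia factor HIF1. The Hif1a transcript was lower in KO (-0.46 against WT, edgeR adjusted p = 0.0236, and -0.44 against C247S KI, adjusted p = 0.0211). With the clock index as a covariate these values were -0.29 (edgeR adjusted p = 0.464) and -0.21 (0.68). HIF1 activity was not measured, and a part of HIF1 in the fall of Hk2 was not tested. The stretch is chr6:82774455-82774704 of GRCm38.p6 from RefSeq, the 250 bases before the start site, read 5′ to 3′ on the minus strand. Capitals mark the core of the hypoxia response element, ACGTG on either strand, which here reads CACGT on the printed strand.

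Hk2 promoter: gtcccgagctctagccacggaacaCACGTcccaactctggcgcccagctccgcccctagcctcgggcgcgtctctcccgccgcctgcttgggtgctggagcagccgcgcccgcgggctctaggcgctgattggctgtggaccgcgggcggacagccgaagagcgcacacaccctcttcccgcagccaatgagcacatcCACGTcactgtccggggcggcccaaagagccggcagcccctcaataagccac

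The core was found 2 times, with first bases at positions -226 and -52 counted from the start site. It is short and common: 19.6% of 32851 RefSeq promoter windows of 300 bases (250 before the start and 50 from it) held at least 1. Every E-box (CACGTG) also contains the core. The window of Slc2a1, another gene known to respond to hypoxia, held 1 core. The inner Hk1 window held 2 and the outer Hk1 window 0, and 1 of the Aldoc windows held 1. In the Khk window the core matched at -71 and -70, which is 1 E-box read on both strands. The core was thus in at least 1 window of 5 of the 8 genes, of which Khk, Aldoc and Slc2a1 passed in neither KO comparison. A match describes the letters only and is not a binding site shown in these livers. The Hif1a call was lost without any 1 of 3 libraries against WT (adjusted p = 0.0713 to 0.0766) and of 5 libraries against C247S KI (0.05 to 0.0676).

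Gckr (ENSMUSG00000059434, chr5:31297443-31327314, plus strand), which restrains glucose phosphorylation in hepatocytes, had nearly the same level in every group. Mean levels in WT, C247S KI and KO were 211 ± 34.4, 209.7 ± 25.4 and 225 ± 15.9 CPM (SD, n = 5 each), with ranges of 166 to 254, 186 to 249.6 and 202 to 240.5 CPM that overlapped throughout. The log2 differences were -0.01, 0.09 and 0.10 in C247S KI against WT, KO against WT and KO against C247S KI (edgeR adjusted p = 0.98, 0.712 and 0.634). The 95% intervals ran from -0.27 to 0.25, from -0.17 to 0.35 and from -0.16 to 0.36.

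Khk (ENSMUSG00000029162, chr5:30921431-30931248, plus strand) commits fructose to metabolism and was the most abundant of the 8. WT libraries 1 to 5 held 654, 716, 861, 677 and 543.5 CPM, the C247S KI libraries 606, 587, 512, 530.0 and 399 CPM, and the KO libraries 519.5, 618, 559.9, 672 and 502 CPM. C247S KI 3, 4 and 5 were below all WT libraries and KO 1 and 5 were as well, with overlap otherwise. The log2 difference was -0.39 in C247S KI against WT (95% interval -0.70 to -0.08, unadjusted p = 0.0162, edgeR adjusted p = 0.419) and -0.27 in KO against WT (-0.57 to 0.04, adjusted p = 0.293). Khk had the lowest p of the 14 tested genes of fructose and polyol metabolism in C247S KI against WT, and it did not pass.

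Of the enzymes of fructose and polyol metabolism, Aldh1b1, a mitochondrial aldehyde dehydrogenase, fell by 0.74 in KO against WT (edgeR adjusted p = 0.0122) and by 1.05 against C247S KI (adjusted p = 0.000887).

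Aldoc (ENSMUSG00000017390, chr11:78322968-78327781, plus strand) is the aldolase of brain, a minor form in liver. In WT libraries 1 to 5 it was at 7.09, 6.15, 4.49, 6.52 and 6.003 CPM, and in C247S KI at 13.1, 14.2, 16.1, 9.44 and 11.7 CPM. The KO libraries held 4.79, 11.2, 7.07, 9.12 and 9.81 CPM, between the other groups and overlapping both. All 5 C247S KI libraries were above all 5 WT libraries, as for 0.726% of all genes.

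The log2 difference of Aldoc between C247S KI and WT was 1.09 (SE 0.20, 95% interval 0.67 to 1.52), or 2.13-fold with an interval of 1.59 to 2.87. Its edgeR adjusted p was 0.051, and by p it ranked 13th of 13916 genes, the next after the 12 that passed. The exact permutation p was 0.00794. With 1 library left out, it passed only without C247S KI 4 (edgeR adjusted p = 0.0176), KO 1 (0.0114) or KO 2 (0.0368). The KO libraries enter this comparison only through the shared fit. The adjusted p of the other such fits reached 0.153. Of 26 alternatives 17 did not call Aldoc, and over all of them its log2 value ran from 1.01 to 1.28. In KO against WT the log2 difference was 0.47 (0.05 to 0.90, adjusted p = 0.166), and without KO 1 it was 0.63 (edgeR adjusted p = 0.0444). In KO against C247S KI it was -0.62 (-1.04 to -0.20, adjusted p = 0.0573). With the clock index as a covariate Aldoc was 1.28 higher in C247S KI than in WT (edgeR adjusted p = 0.00491), and the difference between KO and WT was -0.08.

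The aldolases moved unequally. Aldoa, the muscle and ubiquitous form, fell by 0.72 in KO against WT (SE 0.14, edgeR adjusted p = 0.00714) and by 0.78 against C247S KI (adjusted p = 0.00253), at 107.8 CPM on average in KO, 177 in WT and 185 in C247S KI. Per length, Aldoa stood at 179 ± 62.9 TPM and Aldoc at 7.69 ± 2.91 TPM over 15 libraries, so Aldoc was the scarcer of the pair in every library.

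**Figure D3:**
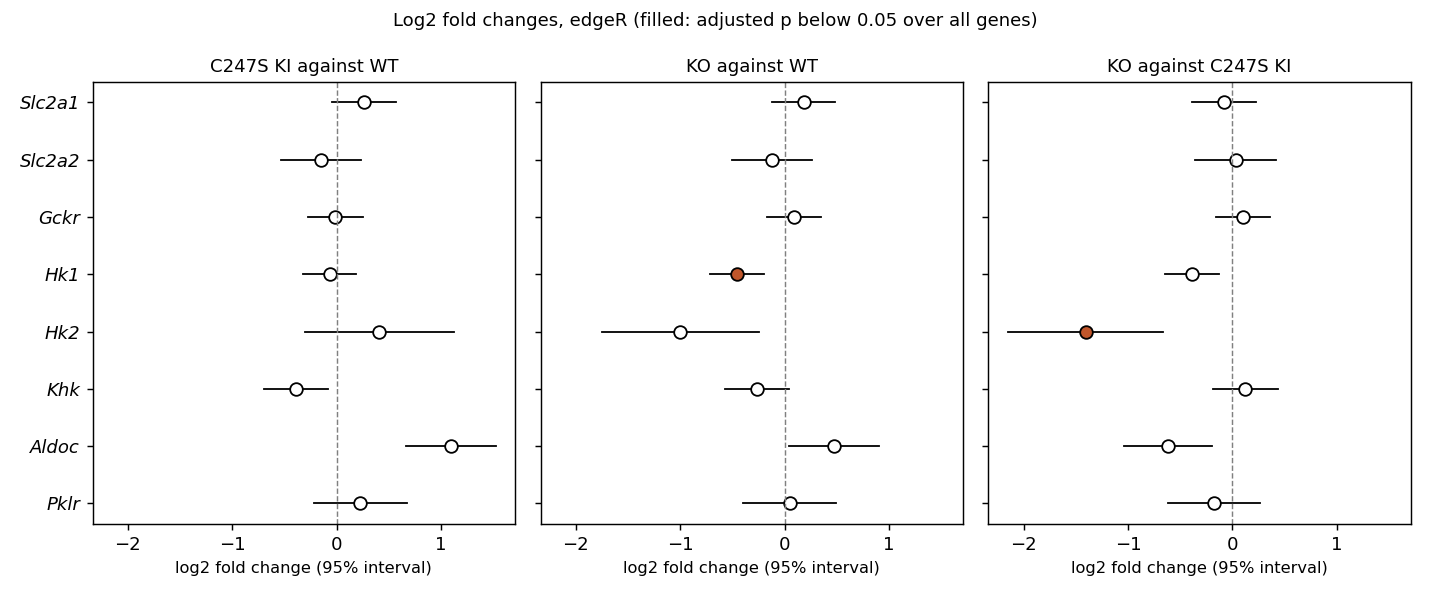
Log2 fold change (edgeR, x axis) of each of the 8 genes, 1 panel per comparison, with 95% intervals as bars and filled points for an adjusted p below 0.05. Hk1 in KO against WT and Hk2 in KO against C247S KI passed, and Aldoc in C247S KI against WT has the largest value above 0, at 1.09.

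Pklr (ENSMUSG00000041237, chr3:89136142-89146784, plus strand) had mean levels of 277 ± 75.3, 324 ± 89.5 and 286 ± 44.8 CPM in WT, C247S KI and KO (SD, n = 5 each). The libraries ran from 195.5 to 382 CPM (WT), 180 to 420.0 (C247S KI) and 229.7 to 346 (KO), and the groups overlapped. The log2 differences were 0.23 in C247S KI against WT (95% interval -0.22 to 0.67), 0.05 in KO against WT (-0.39 to 0.49) and -0.18 in KO against C247S KI (-0.62 to 0.27), with edgeR adjusted p of 0.732, 0.917 and 0.617. Mlxipl, which encodes ChREBP, did not pass either.

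The Pklr promoter is shown because it is the classic site of the carbohydrate response element, to set beside a gene that passed in no comparison. The stretch is chr3:89136373-89136571 of GRCm38.p6 from RefSeq, plus strand, before the inner of the 2 start sites, the one used by the liver form. Capitals mark the match to the carbohydrate response element, a pair of E-box-like stretches (CACGNG and CNCGTG) with 5 bases of any kind between them.

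Pklr promoter: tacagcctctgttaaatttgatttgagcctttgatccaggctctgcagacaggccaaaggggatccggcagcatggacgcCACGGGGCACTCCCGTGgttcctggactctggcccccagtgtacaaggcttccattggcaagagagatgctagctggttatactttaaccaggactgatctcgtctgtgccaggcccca

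The match begins at position -170 from that start site, which RefSeq places at 89136623. The last 51 bases before the site are not printed. Only 15 of 32851 promoter windows held it on either strand (0.0457%), and of the 11 windows of the 8 genes the inner Pklr window was the one that did. The Khk window held 1 E-box (CACGTG) at position -71, a motif in 7.15% of all windows. The windows of Slc2a2 and Gckr held none of the 3 motifs in these letters. At least 1 RefSeq window was matched for each of the 8 genes.

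At the level of transcripts, each gene was carried by 1 or 2 forms. Hk2-201 took 97.3% of Hk2 counts and Pklr-202, which starts at 89136572 and is the liver form by its place, 99.4% of Pklr counts. Slc2a1 was split between the coding Slc2a1-201 (61.9%) and Slc2a1-204 (37.9%), which is annotated as a target of nonsense-mediated decay. Slc2a2-203 (28.9%) and Gckr-207 (25.8%) are annotated as retained introns beside the coding Slc2a2-201 (61.4%) and Gckr-202 (67.7%). Khk-204 took 61.3% and Khk-201 29.9%, and Aldoc-202 took 71.6% and Aldoc-201, which starts upstream, 25.5%. Reads shared between forms had been divided among them by the estimate, so these shares carry an error that the spread between libraries shows only in part. No transcript of the 8 genes passed in edgeR in any comparison over the 32585 transcripts tested, of which 0.00614%, 0.641% and 1.59% passed in the 3 comparisons. At an unadjusted p under 0.05 there were 8, 4 and 4 of their 25 tested transcripts. For Hk2-201 the log2 difference in KO against C247S KI was -1.44 (edgeR adjusted p = 0.0843).

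Hk1 had the most uneven make-up. Of its 20 listed transcripts, 13 had 0 counts in every library, and Hk1-201 (49.1%) and Hk1-202 (42.7%) held most of the rest. They start at different first exons, at 62358362 and 62340542 on the minus strand. Hk1-202 took 30.4 ± 6.05%, 51.8 ± 18.3% and 45.8 ± 9.01% of Hk1 counts in WT, C247S KI and KO (SD, n = 5 each). The differences from WT had exact permutation p of 0.0238 and 0.0159, both 0.171 after adjustment over 36 share tests, none of which passed. In CPM, Hk1-201 averaged 4.87, 3.18 and 2.74 in WT, C247S KI and KO (-0.83 in KO against WT, edgeR adjusted p = 0.236), and Hk1-202 averaged 2.44, 3.92 and 2.69 (0.14, adjusted p = 0.932). Against WT, the lower Hk1 level in KO was thus carried, by value, by Hk1-201, without either form passing. Against C247S KI the larger fall was in the other form, with -0.54 for Hk1-202 (edgeR adjusted p = 0.375) and -0.22 for Hk1-201 (0.813). Hk1-201 was also lower, by value, in C247S KI than in WT (-0.61, edgeR adjusted p = 0.87). The share of Slc2a2-203 had the same lowest p of the family, at 32.5 ± 5.57% in KO and 25.3 ± 1.01% in C247S KI (exact permutation p = 0.0159, adjusted 0.171).

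**Figure D4:**
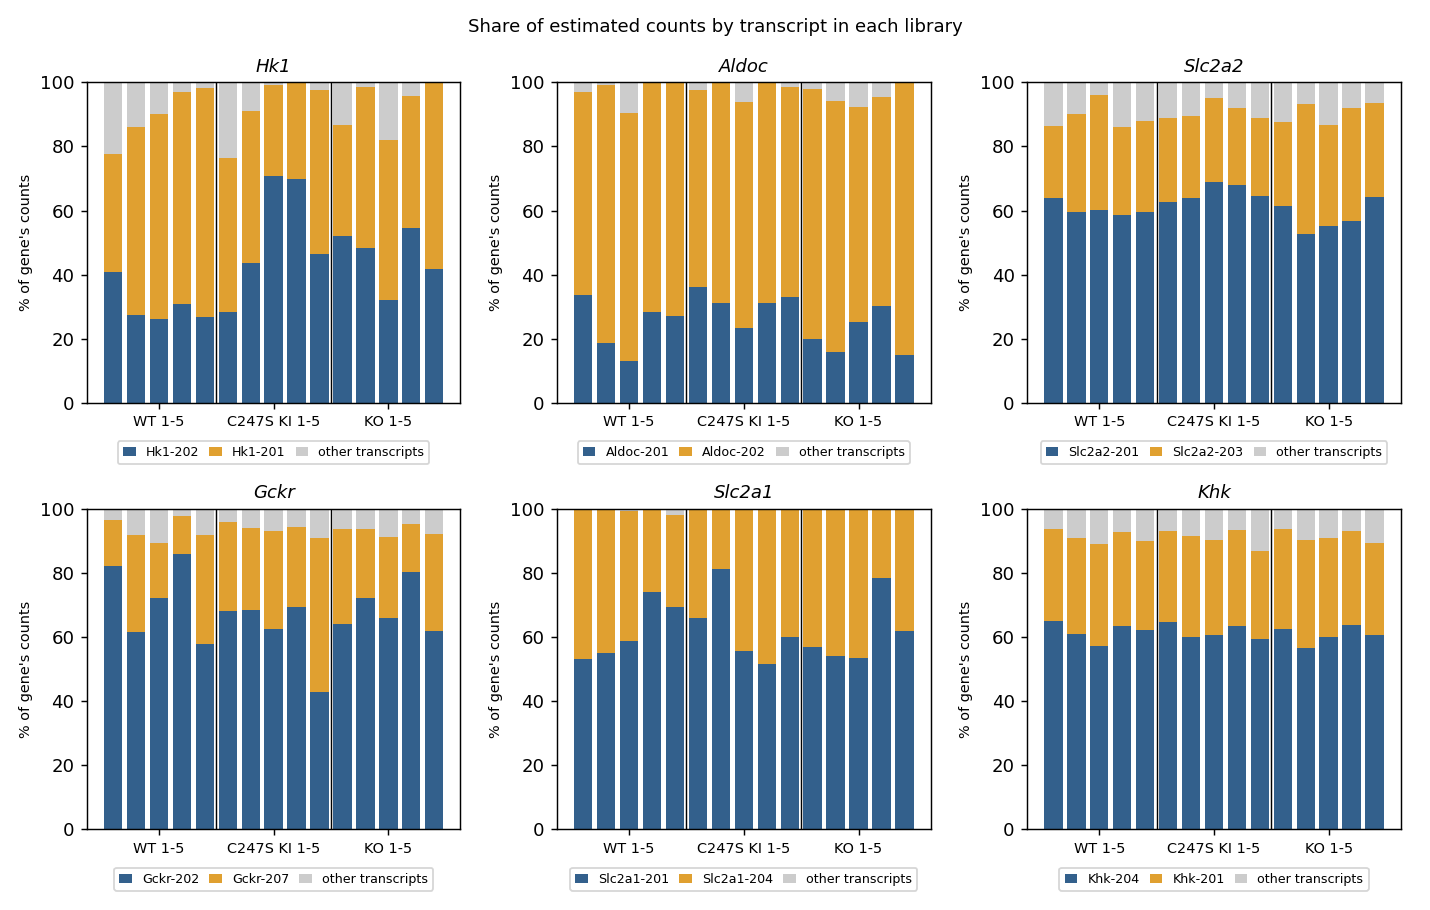
Share (percent, stacked bars, 1 bar per library) of each gene's estimated counts taken by its main transcripts, for the 6 genes with more than 1 main form, with all other transcripts in grey and lines between the groups. The share of Hk1-202 centres on 30.4%, 51.8% and 45.8% in WT, C247S KI and KO, and the groups overlap in every panel.

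Across the 15 libraries the members did not form 1 block. The highest Pearson correlation of log2 CPM among the 28 pairs after group means were removed was 0.52, between Slc2a2 and Pklr, followed by 0.49 between Slc2a2 and Hk2. Hk1 and Hk2 correlated at 0.69 as measured and 0.40 with group means removed, and the lowest value was -0.44, between Slc2a1 and Hk1. These values describe 15 points that share groups and scaling, and they carry no p. With Txnip, Hk1 correlated at 0.75 and Hk2 at 0.67, and at 0.26 and 0.41 with group means removed.

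The genes most like each member were taken by Pearson correlation of log2 CPM over 15 libraries among 11827 genes with a mean of at least 1 CPM. For Aldoc they were Nsdhl (0.90), Tm7sf2 (0.89) and Mvk (0.81), all enzymes of cholesterol synthesis, at 0.732, 0.765 and 0.638 with group means removed. Nsdhl averaged 21.4, 62.8 and 26 CPM in WT, C247S KI and KO, the same order as Aldoc. For Hk1 they were Samd4 (0.92), Plaur, the urokinase receptor (0.92), and Ccnd1, cyclin D1 (0.92), each lowest in KO. For Hk2 they included Dcaf12l1 and Hr (0.88 each).

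For the abundant genes the likeness lay within groups. Slc2a2 was most like Dhdh (0.88), Decr2, a peroxisomal reductase of fatty acid oxidation, and Slc25a13, the aspartate-glutamate carrier (0.87 each), and these values were 0.91, 0.87 and 0.86 with group means removed. Gckr was most like Mafg (0.875), Khk like Bcap31 (0.90), Skp1a (0.90) and the plasma protein gene Ttr (0.88), and Pklr like Pot1a (0.83). Slc2a1 had the weakest best match, Ece1 at 0.755.

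The calls among the genes of these pathways fell in the KO comparisons. Of the 75 tested genes of 6 lists, the 8 members included, edgeR called 8 in KO against WT and 15 in KO against C247S KI. Over all genes tested the shares called were 6.75% and 10.3%. The lists were chosen with earlier results of these data known, and no set test was run. In C247S KI against WT 0 genes of the 6 lists passed in edgeR and in limma-voom, 1 (Aldoc) passed in DESeq2, and 9 had an unadjusted p under 0.05. These lists hold the 9 tested glucose transporters, 9 genes of hexose phosphorylation, 14 of fructose and polyol metabolism, 5 of galactose entry, 24 of glycolysis and 15 carbohydrate response factors. The gene of lowest p was Aldoc in glycolysis, Slc5a1 (1.01, adjusted p = 0.484) among transporters and Galk2 (-0.28, adjusted p = 0.44) in galactose entry. In hexose phosphorylation 5 of 9 log2 values were above 0 and in glycolysis 16 of 24, with medians of 0.04 and 0.10.

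Calls over all genes were more often lower than higher in KO, with 583 of 939 lower against WT and 814 of 1427 against C247S KI, and the glycolysis counts stand beside that. Against WT 0 of 24 glycolysis genes were higher and 3 lower: Aldoa and the lactate carriers Slc16a1 (-0.53, edgeR adjusted p = 0.0439) and Slc16a3 (-0.74). The median of the 24 was -0.21, with 7 values above 0. Against C247S KI 1 was higher, Pfkm (0.43), and 5 were lower, Aldoa, Slc16a3 (-0.96), Slc16a1 (-0.63), Pfkp (-0.64) and Pfkfb2 (-0.73), with a median of -0.27 and 4 values above 0. Of the 14 fructose and polyol genes 1 was lower against WT (Aldh1b1), and against C247S KI 1 was higher, the sorbitol dehydrogenase Sord (0.47), and 2 lower, Aldh1b1 and Gfpt1 (-0.49). Of the 15 response factors Hif1a was lower in both, and against C247S KI Arnt was lower (-0.69) and Usf2 higher (0.31).

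These calls differed in how far they rested on single libraries. Aldoa and Aldh1b1 kept their calls in both KO comparisons without any 1 of the 15 libraries, as did Slc16a1, Slc16a3 and Slc2a5 against C247S KI. The others were lost without at least 1 library: 11 single libraries ended the call of Slc16a1 and 10 that of Slc16a3 against WT (edgeR adjusted p = 0.0584 to 0.113 and 0.055 to 0.116). Against C247S KI, 11 libraries did so for Gfpt1, 10 for Pfkm, 8 each for Pfkp, Pfkfb2 and Sord, 6 for Usf2 and 3 for Arnt (adjusted p = 0.0503 to 0.138). With the clock index as a covariate, none of these calls was kept (edgeR adjusted p = 0.19 to 0.933). The log2 values also changed. Against C247S KI, Slc2a5 shrank to 0.10, Slc16a1 to -0.12, Pfkm to 0.17, Pfkp to -0.38, Aldoa to -0.41, Arnt to -0.54 and Aldh1b1 to -0.73. Pfkfb2 (-1.20), Gfpt1 (-0.64) and Sord (0.66) grew, and Slc16a3 (-0.92) and Usf2 (0.32) stayed close. Against WT, Slc2a5 shrank to 0.37, Slc16a1 to -0.14, Aldoa to -0.44 and Aldh1b1 to -0.51, and Slc16a3 stayed close (-0.71).

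**Figure D5:**
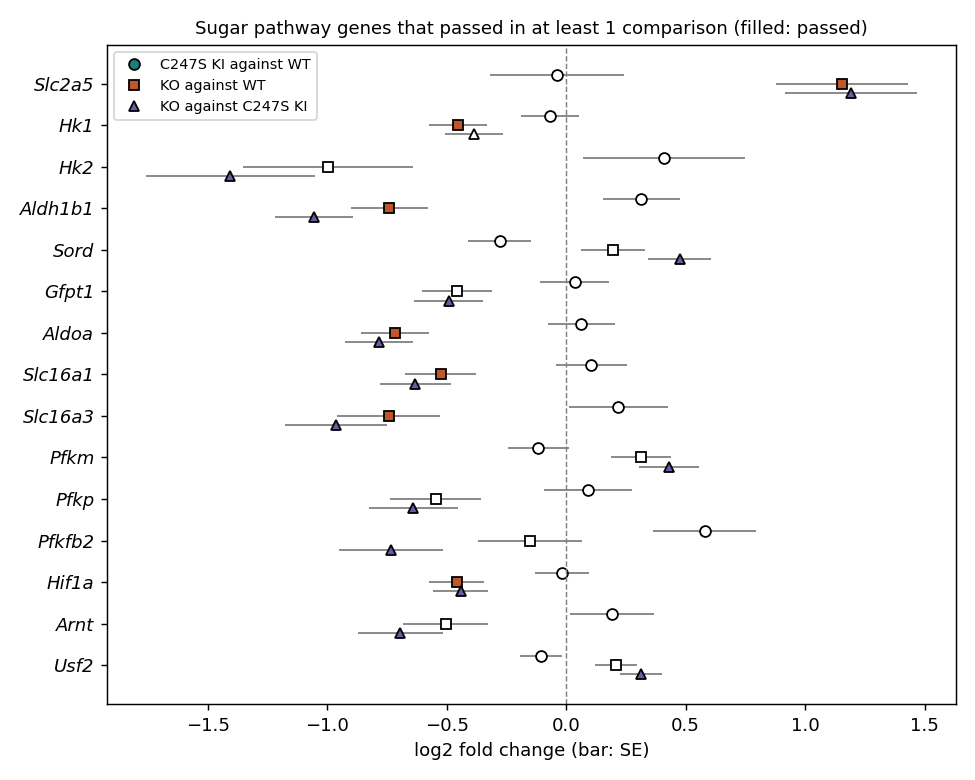
Log2 fold change (edgeR, x axis, bars are SE) in the 3 comparisons of the 15 genes of transport, hexose phosphorylation, fructose and polyol metabolism, glycolysis and carbohydrate response that passed in at least 1 of them, with filled symbols where a gene passed. No gene shown passed in C247S KI against WT, and most filled symbols of the KO comparisons lie below 0.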

How the data were processed

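Bulk RNA-seq of 15 mouse liver libraries, 5 per group by the sample titles, was deposited as 1 table of estimated counts per transcript, already whole numbers. The authors made these estimated counts with kallisto 0.50.1 after Trimmomatic 0.39, and DESeq2 and mm10 are also named, per the submitters' processing notes; which transcripts were indexed is not given in the sources used. Because kallisto divides reads between similar transcripts, paralogous genes and single transcripts are uncertain.

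Transcripts were matched to GENCODE M21 (GRCm38) without version (114331 of 115911, 98.64%) and summed by gene symbol. The 1580 unmatched transcripts held 0.366% to 0.459% of counts and were left out. Genes passed filterByExpr (minimum count 10, total 15), and edgeR 4.0.16 (R 4.3.3) fitted all 15 libraries with TMM factors, group means and the quasi-likelihood test. SE is the log2 fold change over the root of F. Intervals are 95% and cover the spread between libraries. Log2 CPM used a prior count of 2. TPM used GENCODE lengths. Exact permutation tests were two-sided (scipy 1.17.1). Promoters are RefSeq windows.

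The 8 genes and all lists were chosen with earlier results of these data known. Named besides them were Txnip, called members of the pathway and marker lists, the lowest-p genes of lists, and the 3 genes most correlated with each member. Slc2a5, Aldoa and Hk3 levels were added after their values were seen. Some genes that this rule names are not reported here. The procedure was tested on simulated data. In all 30 pairs of libraries from one group, counts differed beyond sampling noise (lowest chi-square over its degrees of freedom 22.84), so no library was taken as a copy.

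Alternatives were DESeq2 1.42.0, limma-voom (limma 3.58.1), upper-quartile and RLE factors, other count filters, protein-coding transcripts only, 2 groups only, the replicate block, a clock index, leaving out 3 libraries at once (WT 1 with C247S KI 3 and 5), and each library left out.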

Additional observations from a re-analysis of the deposited data

Results flagged for a closer look

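Among 36 groups of 5 values (levels and ratios), 1 held a library far from the others: the log2 ratio of Hk1 to Hk2 in KO 2 was 2.22, and the other KO libraries lay between 1.15 and 1.44. KO 2 had the lowest Hk2 level of all libraries, 1.34 CPM. Chance flags about 1 in 20 such groups, and the reason for the gap was not tested.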

How the results depend on the processing

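Over 3366 single values under the alternatives (log2 values of genes, transcripts and ratios, and differences of transcript shares in percentage points), 0 changed sign where called, 146 lost a call and 31 gained one. Slc2a1, Slc2a2, Gckr, Khk and Pklr kept their side of the threshold in all of them. In C247S KI against WT, the 12 calls over all genes became 65 with DESeq2, 20 with no count filter, 6 with only the 2 groups and 27 with the clock index, and 4 to 24 without single libraries. Members called there went from 0 to 1 (Aldoc) with DESeq2, no count filter, RLE factors, only the 2 groups, the clock index or a mean count of at least 50, and were 0 to 1 without single libraries. In KO against WT, the 939 calls became 1493 with DESeq2, 75 with the clock index and 1542 without the 3 libraries WT 1 and C247S KI 3 and 5, and 521 to 1259 without single libraries. Members called went from 1 to 2 (Hk1 and Hk2) with DESeq2, only the 2 groups or without those 3 libraries, to 0 with no count filter or the clock index, and were 0 to 1 without single libraries. In KO against C247S KI, the 1427 calls became 77 with the clock index, and 784 to 2272 without single libraries. Members called went from 1 to 3 (Hk1, Hk2 and Aldoc) with DESeq2, a mean count of at least 50 or protein-coding transcripts only, to 0 with the clock index, and were 0 to 2 without single libraries. Transcripts of members called there were 0 to 1 without single libraries (Hk2-201 without C247S KI 3, adjusted p = 0.0349). With limma-voom Hk2 lost its call there (-1.28, adjusted p = 0.0538) and Aldoc gained one (-0.65, adjusted p = 0.0466), so 1 member was called. Except where a setting drops samples or genes, the cause was not tested.

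Same-numbered libraries did not deviate together (4 of 15 pairs over 0.1, r from -0.141 to 0.381). With the replicate number as a block the calls over all genes were 6, 1046 and 1594, and 0, 1 and 1 members passed, with Hk1 at -0.45 (adjusted p = 0.0435) and Hk2 at -1.38 (0.0446). Counts of 29 to 215 for Hk2 and Hk1 limit the precision of both genes.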
